A study of Caenorhabditis elegans with 36 samples.

Results

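Genes that build and service cilia were followed in whole-worm RNA of Caenorhabditis elegans, in 36 RNA-seq libraries of 2 strains at 3 adult ages with and without krill oil. The genes are 40 that were listed by name for a role in cilium assembly or in intraflagellar transport (IFT). The rule uses no measured value, though the genes were chosen with earlier results of these data known. Each of the 40 matched 1 of the 46778 gene identifiers counted. They comprise 13 subunits of the IFT-B complex, 3 of the IFT-A complex, 4 kinesin-2 motor genes, 2 dynein-2 motor genes, 6 subunits of the BBSome, 4 genes of the transition zone, basal body and rootlet, 3 ciliary kinases, 3 genes of the axoneme and ciliary membrane, dyf-17 and daf-19.

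A cilium is a microtubule-based projection that has no ribosomes of its own, so its proteins are carried in and out. Kinesin-2 motors move IFT trains, made of the IFT-A and IFT-B complexes, toward the tip, and the dynein-2 motor returns them to the base. The BBSome links membrane cargo to the trains, the transition zone gates the entrance, and the RFX transcription factor DAF-19 turns on many of these genes. In C. elegans hermaphrodites cilia are found only on certain sensory neurons, at the ends of their dendrites. The dopaminergic neurons are among them, and the loss of single IFT genes is known for defects in dye filling, osmotic avoidance and chemotaxis.

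PD animals were strain BY273, which carries integrated transgenes for α-synuclein and for GFP, each driven by the promoter of dat-1, the dopamine transporter gene, in dopaminergic neurons. Wild type (WT) animals were strain N2, and the labels enter the genotype as wild type for both strains. Krill oil, an oil rich in phospholipid-bound polyunsaturated fatty acids, was given in the plates at 0.5 µl per ml to animals placed on them at the L4 larval stage, and control plates held none. All animals were synchronized hermaphrodites fed Escherichia coli without FdUrd, an inhibitor of egg production, and were instead washed over a nylon mesh each day once past adult day 2, to part them from offspring. Animals were collected at adult day 1, 3 and 6, giving PD krill oil, PD control, WT krill oil and WT control groups of 3 libraries at each age. The comparisons ask how krill oil moves the transcriptome with age in each strain. The 3 libraries of a group are called biological replicates in the study, and p-values here measure the spread between them.

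Libraries held 16488713 to 34605080 counts. Ribosomal RNA took 24.5% of the counts in PD krill oil day 1 replicate 3 and 23.5% in WT control day 6 replicate 3, against 5.31% to 13.6% in the other libraries. The 40 cilium genes together took 2613 to 6624 counts in a library, 0.0122% to 0.0281% of its total, and none had a count of 0 in any library. Levels are counts scaled to library size (CPM) and set on one scale over all 36 libraries. The mean level of a cilium gene was 1.37 CPM at the median, 14 of the 40 lay under 1 CPM, 28 under 3 CPM and 9 over 5 CPM. The median cilium gene had 29.5 counts in its median library, so small changes of single IFT genes were often not detectable at this depth. All 16 pan-neuronal markers were present, as were 29 other cilium genes, and no marker of the 10 lists used was at 0 in every library.

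The strain labels of the day 6 libraries go against strain-specific genes, and this touches every day 6 result below. Outside the 40, 17 genes on 6 chromosomes were higher in all 6 libraries labelled PD than in all 6 labelled WT at day 1, by a gap of over 1 on the scale of log2(CPM + 0.1). They were picked after the data were seen and on day 1 libraries alone. At day 3, 16 of the 17 were again higher in every PD library. At day 6, 16 of the 17 were lower in every library labelled PD than in every library labelled WT, a pattern shown by 3.64% of all 16324 genes. Of 11 genes picked in the same way for being lower in PD at day 1, 7 were lower in PD at day 3 and none at day 6, where 2 were higher.

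C27D8.3 on chromosome IV is one such gene. It had 130 to 147 CPM in the 12 PD libraries of day 1 and 3, against 13.5 to 15.6 CPM in the 6 WT libraries of day 1. At day 6 it had 11.8 to 14.3 CPM in the 6 libraries labelled PD, against 115 to 136 CPM in the 6 labelled WT. WT control replicate 3 at day 3 lay between the strains, at 38.7 CPM, against 15.1 and 14.9 CPM in the other two controls. B0511.11 on chromosome I showed the same order, with 3.25 to 4.21 CPM in libraries labelled PD day 6 and 20.6 to 28.6 CPM in those labelled WT day 6. The gene hmg-20 ran the other way, with 33.8 to 44.7 CPM in libraries labelled PD day 6 and 7.16 to 10.6 CPM in those labelled WT day 6.

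**Figure D1:**
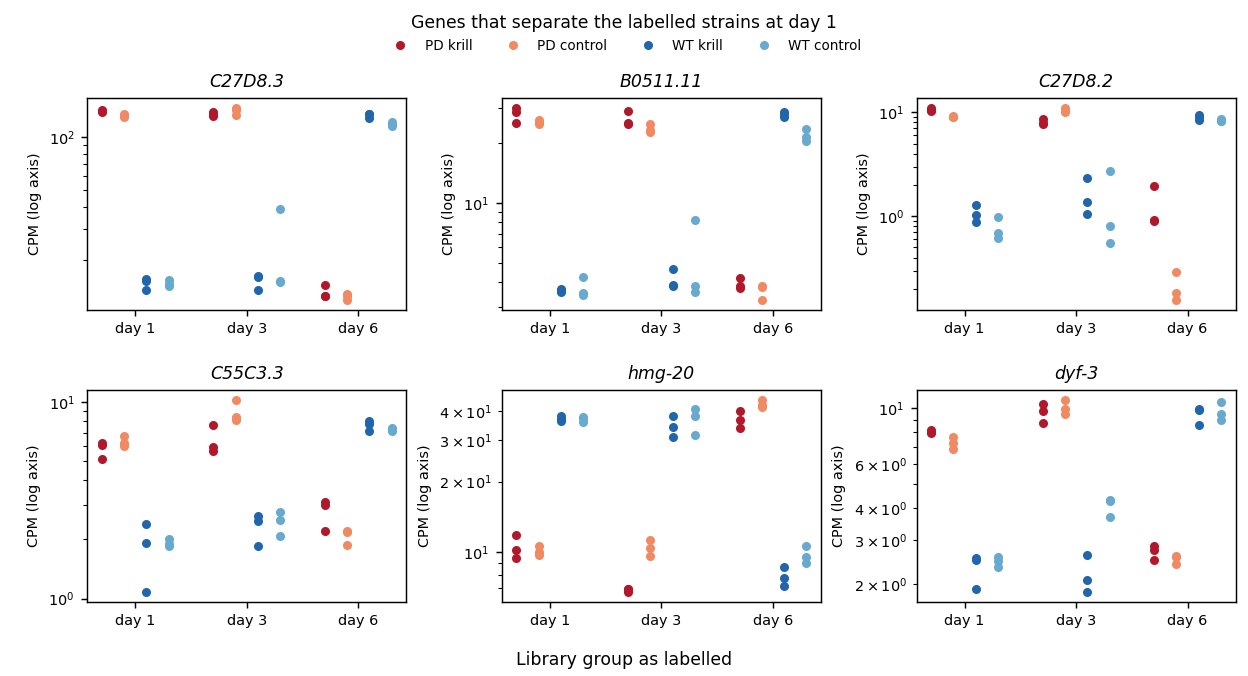
CPM (log axes) of 5 genes that separate the labelled strains at day 1 and of the cilium gene dyf-3, with 1 point per library, by labelled strain, diet and adult day. At day 6 the libraries labelled PD sit where the WT libraries of day 1 and 3 sit, and the reverse, as for C27D8.3 at 11.8 to 14.3 CPM in libraries labelled PD day 6 and 115 to 136 CPM in those labelled WT day 6.

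The labels were kept as given, and the cause was not tested. Krill oil and control libraries of day 6 were compared within 6 libraries that share a strain label. They do not all share the level of the strain-specific genes. Over the 17 genes higher in PD at day 1, the median log2 CPM was -0.01 in libraries labelled PD krill oil day 6. It was -0.99 in those labelled PD control day 6. In libraries labelled WT day 6 it was 2.02 with krill oil and 1.69 in controls. The part of these gaps in the day 6 krill oil results was not tested. If the 2 strain names at day 6 were exchanged, krill oil results labelled WT at that day would belong to PD animals, and the reverse. PD against WT and the strain interaction would then change sign at that day, and steps from day 3 to day 6 would join other libraries. Those steps are therefore given as comparisons of labels, in which strain and day cannot be told apart. Counts of genes called higher in comparisons with WT controls of day 3 are also given without WT control replicate 3. Values of single genes, relative levels and orders of libraries keep that replicate. Steps from day 1 to day 3 are also given without the day 6 libraries in the fit.

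Levels per kilobase of exon were led by hyls-1, a gene of the centriole and basal body that averaged 10.6 CPM per kb over the 36 libraries. Daf-19 followed at 8.69, the kinesin-II motor gene klp-20 at 6.97, dyf-17 at 6.39 and the rootletin gene che-10 at 5.59 CPM per kb. The other kinesin-II motor gene klp-11 averaged 4.58 and the IFT-B gene dyf-3 4.2 CPM per kb. Most subunits of the transport complexes were far lower, such as the IFT-B gene che-2 at 0.308, the IFT-A gene daf-10 at 0.355, the BBSome gene bbs-1 at 0.315 and the dynein-2 light intermediate chain gene xbx-1 at 0.287 CPM per kb. The ratio of a gene's highest to its lowest group mean was 1.31 for hyls-1, 1.51 for the IFT-B gene osm-1 and 1.58 for daf-19, against 8.56 for che-2, 8.46 for the kinase gene dyf-18 and 9.94 for the α-tubulin gene tba-9.

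A relative level was taken in each library as the median over the 40 genes of log2(CPM + 0.1) minus the gene's mean over all libraries. With krill oil it was -0.39 ± 0.08, 0.62 ± 0.06 and -0.23 ± 0.16 in PD at day 1, 3 and 6, against -0.32 ± 0.04, 0.48 ± 0.07 and -0.41 ± 0.05 in PD controls (SD, n = 3). In WT it was -0.37 ± 0.20, 0.39 ± 0.18 and -0.11 ± 0.07 with krill oil, against -0.24 ± 0.21, -0.13 ± 0.09 and 0.88 ± 0.04 in controls. The 4 groups of day 1 therefore lay together, and the highest group was the one labelled WT control day 6. Of the 40 genes, 27 had their highest group mean there, where 24.5% of all genes tested had theirs, and 6 had it in PD krill oil day 3 (6.36%). Over the 8 groups of day 1 and 3 alone, 23 of 40 peaked in PD krill oil day 3 (17.4% of all genes) and 7 in PD control day 3 (14.3%).

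**Figure D2:**
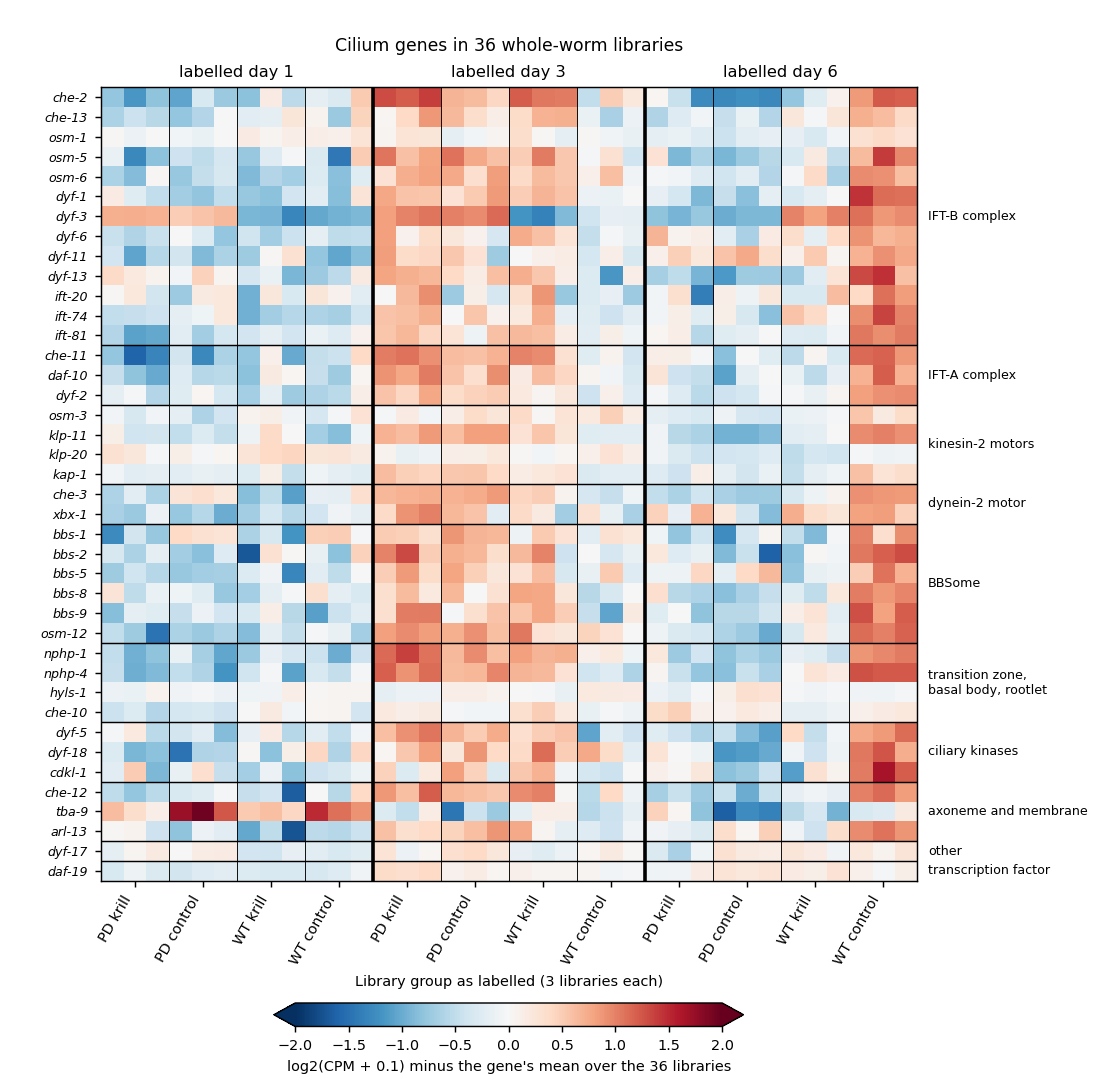
Level of each of the 40 cilium genes in each of the 36 libraries, as log2(CPM + 0.1) minus the gene's mean over all libraries, with genes in rows by role and libraries in columns by labelled day, strain and diet. Most transport genes are high in both PD groups and the WT krill oil group at day 3 and in the libraries labelled WT control day 6, where 27 of 40 peak, while hyls-1, klp-20, che-10 and daf-19 stay close to their means.

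**Figure D3:**
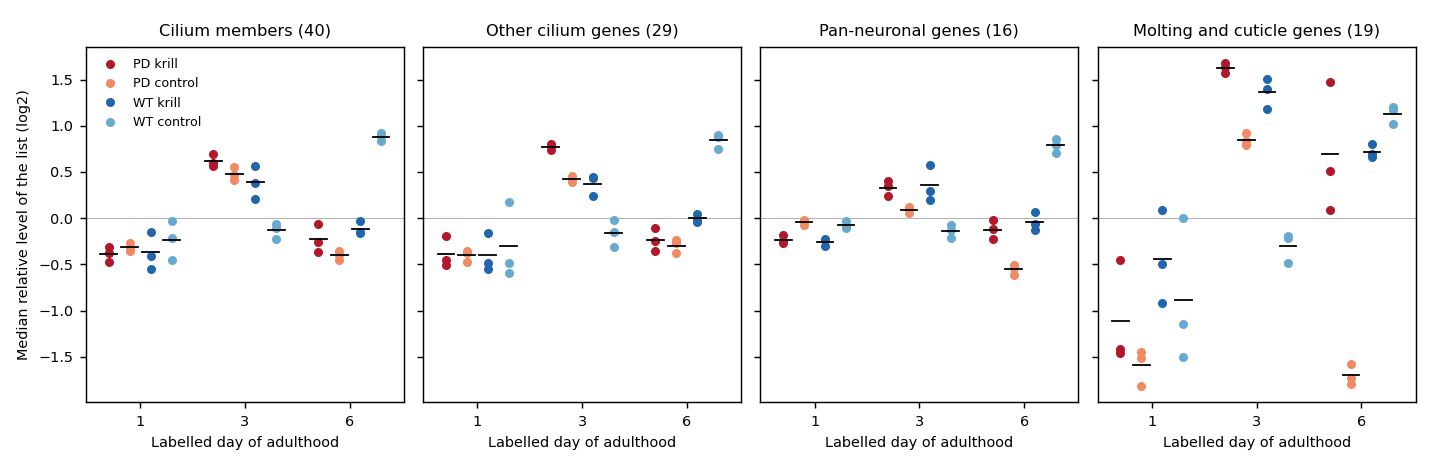
Median relative level (log2) of 4 gene lists in each library by labelled day, with a line at the mean of 3 libraries. The 40 cilium genes lie at 0.88 ± 0.04 in libraries labelled WT control day 6 and the 29 other cilium genes at 0.84 ± 0.08, and the pan-neuronal and molting lists are also high there, at 0.78 ± 0.07 and 1.13 ± 0.09.

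At day 1 few cilium genes were called with krill oil, and in PD animals the share lower was close to that of all genes. In PD animals 3 of 35 tested were lower, where 8.07% of all 13569 genes tested were lower and 7.44% higher (edgeR quasi-likelihood test, Benjamini-Hochberg adjusted p under 0.05). None was higher, as by DESeq2 and at an unadjusted p under 0.05. Without PD krill oil replicate 3, which stood apart in ribosomal RNA, 2 were lower. The low-count genes che-2, osm-6, ift-20, xbx-1 and dyf-18 were not tested, and the median log2 fold change of the tested genes was -0.03.

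The smallest p was that of tba-9, an α-tubulin of ciliated neurons. It had 2.28, 1.88 and 1.6 CPM in PD krill oil libraries, against 5.02, 5.85 and 3.56 CPM in PD controls. The groups did not overlap, and the log2 fold change was -1.30 (standard error, SE, 0.216, adjusted p = 0.0019). The dynein-2 heavy chain gene che-3 had 5.78, 7.59 and 5.68 CPM with krill oil, against 10.6, 11.3 and 10.3 CPM in controls. It too fell without overlap, by 0.75 on the log2 scale (SE 0.126, adjusted p = 0.00204). The BBSome gene bbs-1 had 0.175, 0.419 and 0.296 CPM with krill oil, against 0.778, 0.726 and 0.704 CPM in controls (log2 fold change -1.33, SE 0.349, adjusted p = 0.0258). This last call rests on very few reads and was lost by DESeq2 and without PD control replicate 1, 2 or 3 or PD krill oil replicate 1 or 3, at adjusted p up to 0.19.

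In WT animals at day 1 no cilium gene of 34 tested was called by edgeR, where 4.87% of all 13991 genes were higher and 2.49% lower. At an unadjusted p under 0.05, 2 were higher and 3 lower, and DESeq2 called 1 lower. Without WT control replicate 3, which had the highest relative level of its group, 1 was called higher and 2 lower. Che-3 had 4.86, 6.24 and 4.14 CPM in WT krill oil libraries, against 7.94, 7.85 and 11.2 CPM in WT controls. Its libraries did not overlap, with a log2 fold change of -0.82 (SE 0.205, adjusted p = 0.0578). Tba-9 had 2.12, 2.26 and 1.97 CPM with krill oil, against 4.27, 3.23 and 2.77 CPM in controls (log2 fold change -0.68, SE 0.204, adjusted p = 0.102). Che-3 was called lower by DESeq2, with only all-zero genes removed and in 1 fit of all 36 libraries, and both genes without WT control replicate 3. The difference between the strains in the effect of krill oil was tested directly and called no cilium gene of 36 at day 1 (0.0345% of all genes higher, 0.0552% lower), 1 higher and none lower at an unadjusted p under 0.05, and none by DESeq2. The smallest p were those of dyf-1 (difference PD minus WT 1.07, SE 0.455, adjusted p = 0.611), the IFT-B gene dyf-11 (-0.89, SE 0.419, adjusted p = 0.64) and tba-9 (-0.64, SE 0.315, adjusted p = 0.658), and for che-3 the difference was 0.06 (SE 0.251, adjusted p = 0.965). Daf-19 had 21.9, 25.1 and 22 CPM in PD krill oil libraries, against 20.8, 22.5 and 23.4 CPM in PD controls. In WT it had 22.4, 21.9 and 21.8 CPM with krill oil, against 21.6, 22.5 and 25.8 CPM in controls. Its log2 fold changes were 0.05 in PD and -0.08 in WT (adjusted p = 0.771 and 0.648).

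Other transcripts moved with krill oil in PD animals at day 1. All 8 body wall muscle genes were lower, with summed levels of 5232 to 6213 CPM in PD krill oil and 7511 to 7847 CPM in PD control libraries. Pan-neuronal genes were lower for 3 of 16, with sums of 355 to 383 CPM against 403 to 415 CPM. Of 17 molting and cuticle genes tested, 6 were higher and 1 lower, with sums of 176 to 340 CPM against 130 to 148 CPM. Of 29 further cilium genes, 17 were tested and only mks-1, a transition zone gene, was called, lower by -0.99 on the log2 scale (SE 0.257, adjusted p = 0.0237). The part of the other lists in the cilium calls was not tested. In whole-worm RNA fewer cells of a type and less RNA per cell cannot be told apart.

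At day 3 a minority of the cilium genes rose with krill oil in WT animals, among them the motor genes klp-11 and che-3 and the transition zone gene nphp-4. Of 38 tested, 15 were higher and 2 lower, against 22% and 14.1% of all 14487 genes, and the median log2 fold change was 0.57, against 0.00 over all genes. All 3 krill oil libraries lay above all 3 controls for 20 genes and below them for 4, where 26.9% and 24.4% of all genes did so. The genes ift-20 and xbx-1 were not tested. The genes called higher were 5 of 12 IFT-B genes tested, 1 of 3 IFT-A genes, 2 of 4 kinesin-2 genes, the dynein-2 gene che-3, 2 of 6 BBSome genes, 3 of 4 genes of the transition zone, basal body and rootlet, and 1 of 3 kinases. The count of rises was 12 without WT control replicate 3, with the median still at 0.57. It was 7 without WT control replicate 1, 8 without WT krill oil replicate 2 and 6 by DESeq2.

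The kinesin-II motor gene klp-11, on chromosome IV from 8756735 to 8762066 of WBcel235, had 12.4, 15 and 12 CPM in WT krill oil libraries, against 8.63, 8.64 and 8.71 CPM in WT controls. Every krill oil library was higher, by 0.61 on the log2 scale (SE 0.109, adjusted p = 0.00233). The transition zone gene nphp-4, on chromosome V from 11831197 to 11843728, had 3, 2.94 and 2.27 CPM with krill oil, against 1.37, 1.52 and 1.17 CPM in controls (log2 fold change 1.02, SE 0.201, adjusted p = 0.00385). Che-10, which encodes the rootletin that anchors the basal body, had 46.2, 52.1 and 42.5 CPM with krill oil, against 33.5, 36.5 and 34.7 CPM in controls (log2 fold change 0.43, SE 0.0778, adjusted p = 0.00242). Che-3, on chromosome I from 8062007 to 8081671, had 12, 12.5 and 9.35 CPM with krill oil, against 7.02, 6.42 and 8.33 CPM in controls. The motor gene was thus higher at day 3 (log2 fold change 0.63, SE 0.14, adjusted p = 0.00685), without overlap. The ciliary kinase gene dyf-5 had 1.39, 1.56 and 1.66 CPM with krill oil, against 0.471, 0.907 and 0.789 CPM in controls, and rose by 1.07 (SE 0.269, adjusted p = 0.0128). Over 140 nt its exons overlap those of ppfr-1 on the other strand, a gene with 178897 counts over all libraries, where dyf-5 had 1048.

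Dyf-3 and hyls-1 ran against the others. The IFT-B gene dyf-3, on chromosome IV from 3396581 to 3399231, had 2.08, 1.86 and 2.6 CPM in WT krill oil libraries at day 3, against 3.69, 4.32 and 4.27 CPM in WT controls. It fell by 0.92 on the log2 scale (SE 0.174, adjusted p = 0.0031). Hyls-1 had 23.2, 22.4 and 20.8 CPM with krill oil, against 26.3, 26 and 25.8 CPM in controls (log2 fold change -0.23, SE 0.0696, adjusted p = 0.0266). The call for hyls-1 was lost without WT control replicate 1 or 2 or WT krill oil replicate 3, at adjusted p up to 0.0808. Daf-19 had 29, 27.9 and 28 CPM with krill oil, against 28.1, 26 and 26.6 CPM in controls (log2 fold change 0.07, SE 0.064, adjusted p = 0.399).

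The rise of the WT cilium genes at day 3 came with rises in other lists. Of 24 further cilium genes tested, 11 were higher, among them the β-tubulin gene tbb-4 (log2 fold change 1.18, SE 0.189, adjusted p = 0.00121) and the transition zone genes mks-3 (1.26, SE 0.262, adjusted p = 0.00512) and mks-5 (1.11, SE 0.261, adjusted p = 0.00954). Of 16 pan-neuronal genes 11 were higher, with summed levels of 453 to 509 CPM in WT krill oil and 402 to 440 CPM in WT control libraries. All 19 molting and cuticle genes were higher, with sums of 787 to 1002 CPM against 301 to 333 CPM, and all 8 muscle genes, with sums of 4538 to 5154 CPM against 2357 to 3415 CPM. Sperm genes were higher for 4 of 6 tested, amphid glia genes higher for 4 of 7, oocyte genes lower for 5 of 11, and intestine genes lower for 4 and higher for 2 of 9. The part of these transcripts in the cilium result was not tested.

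In PD animals at day 3 krill oil moved daf-19, che-10, che-2, hyls-1 and a few other cilium genes. Of 39 tested, 6 were higher and 2 lower, against 21.2% and 19.9% of all 14588 genes, so a smaller share of the cilium genes was called than of all genes. The median log2 fold change was 0.15, against 0.00 over all genes, and ift-20 was not tested. Of the 40 genes 28 had a mean under 3 CPM, and the part of low counts in the smaller share called was not tested. The counts were 2 higher and 1 lower by DESeq2, 3 higher without PD control replicate 1 or PD krill oil replicate 2, and 1 lower without PD control replicate 1 or 3 or PD krill oil replicate 2 or 3.

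Daf-19, on chromosome II from 10157520 to 10169346, had the smallest p, with 34.7, 34 and 35.7 CPM in PD krill oil libraries, against 28.7, 29.9 and 27.6 CPM in PD controls. Its libraries did not overlap and the log2 fold change was 0.27 (SE 0.0489, adjusted p = 0.000888), a call kept under each of the 11 alternatives run. Che-10 had 42.4, 40.8 and 42.1 CPM with krill oil, against 36.2, 35.8 and 35.8 CPM in controls (log2 fold change 0.21, SE 0.0405, adjusted p = 0.00139). The IFT-B gene che-2 had 1.61, 1.5 and 1.7 CPM with krill oil, against 1.01, 0.974 and 0.822 CPM in controls (log2 fold change 0.76, SE 0.186, adjusted p = 0.00631). All krill oil libraries of these genes lay above the controls, as did those of the IFT-A gene che-11 (log2 fold change 0.39, SE 0.125, adjusted p = 0.0273) and the transition zone gene nphp-1 (0.47, SE 0.169, adjusted p = 0.0423). Of the 40 genes, 7 lay above the controls in this way and 3 below them, where 28.1% and 24.5% of all genes did so. Hyls-1 had 20, 21.2 and 21.1 CPM with krill oil, against 25.1, 25.2 and 24.2 CPM in controls, and fell by 0.27 on the log2 scale (SE 0.0556, adjusted p = 0.00235). Klp-20 had 16.3, 14 and 14.6 CPM with krill oil, against 17.1, 17 and 18.1 CPM in controls (log2 fold change -0.22, SE 0.0745, adjusted p = 0.0322). Osm-1 had 12.2, 14.3 and 14 CPM with krill oil, against 10.4, 11.4 and 12.3 CPM in controls, which overlap. It rose by 0.25 (SE 0.0887, adjusted p = 0.0433). The calls of klp-20 and osm-1 were each lost under 6 of 11 alternatives, DESeq2 among them. The call of che-2 was lost by DESeq2 (adjusted p = 0.0894) and that of che-10 in edgeR with all 36 libraries in 1 fit (adjusted p = 0.0843).

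Of 28 further cilium genes tested in PD at day 3, 5 were higher, including mapk-15 (log2 fold change 0.50, SE 0.113, adjusted p = 0.0035), mks-5 (0.51, SE 0.135, adjusted p = 0.00975) and tbb-4 (0.41, SE 0.116, adjusted p = 0.0141). Molting genes were higher for 15 of 19, with sums of 969 to 1071 CPM in PD krill oil and 693 to 748 CPM in PD control libraries, and 8 of 16 pan-neuronal genes were higher and 3 lower. Muscle genes were higher for 8 of 8 and amphid glia genes for 5 of 7, and intestine genes lower for 5 and higher for 3 of 9. Their part in the cilium result was not tested.

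By the test of the difference itself, 3 of the 40 genes responded to krill oil differently in PD than in WT at day 3, 1 higher in PD and 2 lower, against 3.4% and 6.2% of all 15299 genes. Neither share was above that of all genes. The 3 genes were dyf-3 (difference PD minus WT 0.85, SE 0.179, adjusted p = 0.00962), klp-11 (-0.65, SE 0.14, adjusted p = 0.0107) and che-3 (-0.70, SE 0.155, adjusted p = 0.012). In PD animals klp-11 had 16.6, 15.6 and 18.4 CPM with krill oil, against 15.5, 18.1 and 18.1 CPM in controls, which overlap. The call of klp-11 was lost in edgeR with all 36 libraries in 1 fit (adjusted p = 0.0852). The count was the same without WT control replicate 3, and 4 genes were lower without WT krill oil replicate 3. For daf-19 the difference was 0.19 (SE 0.0715, adjusted p = 0.1).

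**Figure D4:**
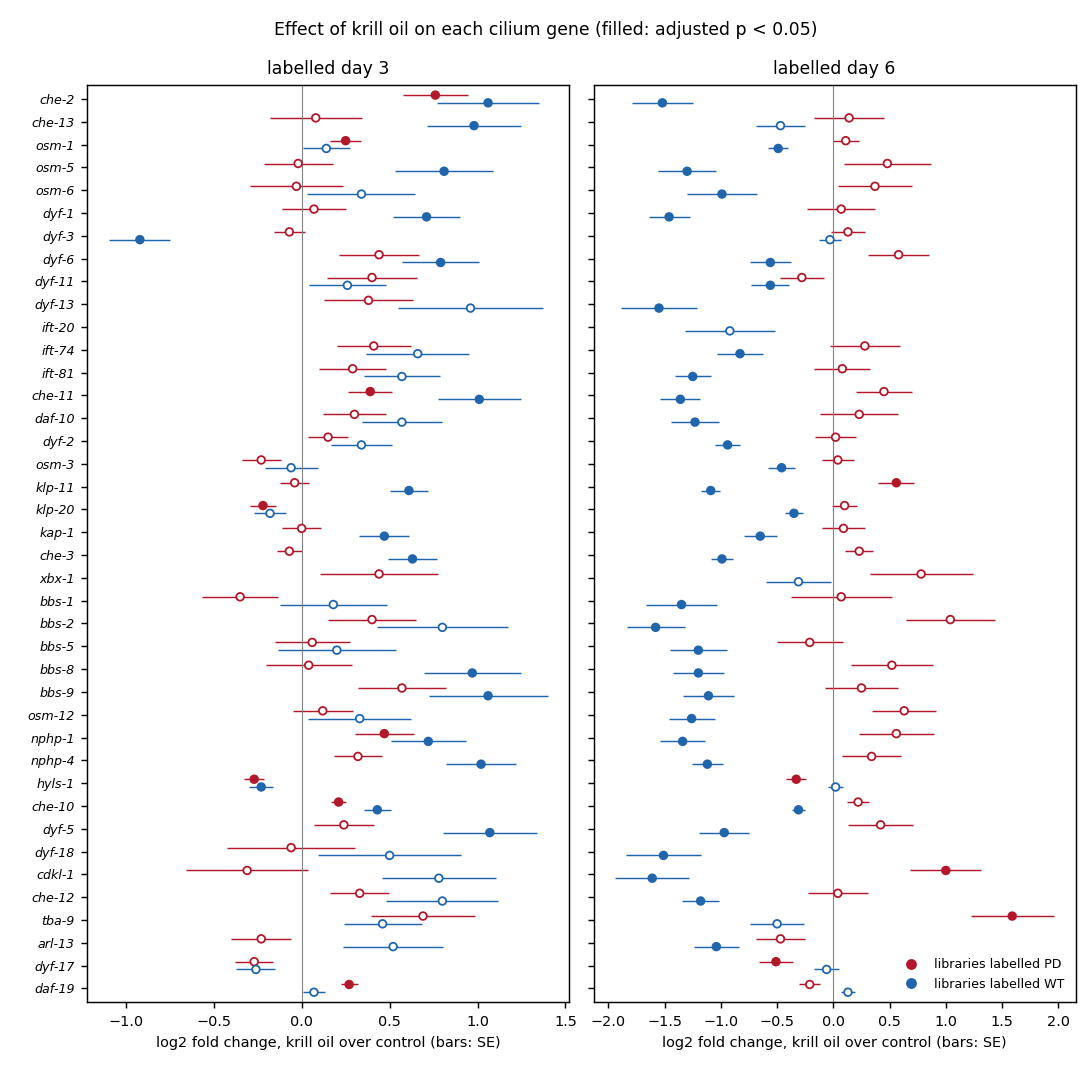
Log2 fold change of each cilium gene for krill oil over control at labelled day 3 and day 6, in libraries labelled PD (red) and WT (blue), with bars of 1 SE and filled points at an adjusted p under 0.05. At day 3, 15 of 38 genes tested are higher in WT, and at day 6, 32 of 40 are lower in libraries labelled WT, with a median of -1.02.

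At day 6 the cilium genes were lower with krill oil in the libraries labelled WT. Of 40 tested, 32 were lower, against 32.6% of all 15318 genes, and none was higher, against 30.9% of all genes. None was higher at an unadjusted p under 0.05 or by DESeq2, which called 29 lower. The median log2 fold change was -1.02, against -0.02 over all genes, with a range of -1.61 to 0.13. All 3 krill oil libraries lay below all 3 controls for 34 genes, where 35.1% of all genes did so. The count of lower genes was 31 or 32 when any 1 library was left out. Without WT control replicate 3, which stood apart in ribosomal RNA, it was 32 and the median -1.08.

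Klp-11 had 8.71, 9 and 10.1 CPM in libraries labelled WT krill oil day 6, against 19.8, 20.5 and 19.3 CPM in those labelled WT control day 6. It fell by 1.09 on the log2 scale (SE 0.0848, adjusted p = 1.52e-07) and had the smallest p of the 40. Its partners in the kinesin-II motor changed less, with klp-20 at 11, 12.2 and 11.8 CPM against 15.4, 14.6 and 14.8 CPM (log2 fold change -0.35, SE 0.0827, adjusted p = 0.00213) and the accessory subunit gene kap-1 lower by -0.65 (SE 0.147, adjusted p = 0.00163). The homodimeric kinesin gene osm-3 was lower by -0.46 (SE 0.122, adjusted p = 0.00454). Che-3 had 7.07, 8.25 and 9.33 CPM with krill oil, against 16.8, 16.3 and 16.1 CPM in controls. All 3 krill oil libraries were far below the controls (log2 fold change -0.99, SE 0.101, adjusted p = 2.13e-06).

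IFT-A genes were lower for 3 of 3. The IFT-A gene dyf-2, on chromosome III from 13674879 to 13686445, had 3.63, 3.34 and 3.87 CPM with krill oil, against 6.61, 7.1 and 7.22 CPM in controls (log2 fold change -0.94, SE 0.111, adjusted p = 8.5e-06). IFT-B genes were lower for 10 of 13, with a median of -0.92 and a range of -1.55 to -0.03. The most abundant of them per library, osm-1, had 10.5, 9.53 and 11.4 CPM with krill oil, against 14.5, 15.4 and 14.4 CPM in controls (log2 fold change -0.49, SE 0.0898, adjusted p = 0.00037). All 6 BBSome genes were lower, between -1.58 and -1.11. Bbs-5 had 0.497, 0.825 and 0.855 CPM with krill oil, against 1.35, 2.08 and 1.57 CPM in controls, a log2 fold change of -1.20 (SE 0.251, adjusted p = 0.000999). It shares 20 nt of exon with inpp-4B on the same strand. The 3 kinase genes were lower, between -1.61 and -0.97, with dyf-5 at 1.45, 0.75 and 1.04 CPM against 1.89, 2.04 and 2.47 CPM.

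Of the genes at the base of the cilium, nphp-4 had 1.83, 2.25 and 2.08 CPM with krill oil, against 4.6, 4.46 and 4.44 CPM in controls (log2 fold change -1.12, SE 0.135, adjusted p = 1.05e-05). Che-10 had 32.2, 32.7 and 34.4 CPM with krill oil, against 39.8, 41.4 and 43.1 CPM in controls (log2 fold change -0.31, SE 0.0538, adjusted p = 0.000203). Both were lower without overlap. The 8 genes not called were ift-20, che-13, tba-9, xbx-1, dyf-17, hyls-1, dyf-3 and daf-19. Dyf-3 had 9.82, 8.55 and 9.93 CPM with krill oil, against 10.6, 8.96 and 9.51 CPM in controls (log2 fold change -0.03, SE 0.101, adjusted p = 0.804). Hyls-1 had 22.5, 21.9 and 22.4 CPM with krill oil, against 21.8, 21.6 and 22.7 CPM in controls (log2 fold change 0.02, SE 0.0643, adjusted p = 0.761). Daf-19, the regulator, had 30.1, 29.3 and 33.1 CPM with krill oil, against 29.1, 26.6 and 29.2 CPM in controls (log2 fold change 0.13, SE 0.0654, adjusted p = 0.0907). The transcript of the RFX factor was not called while 32 of the other genes were lower, and the part of daf-19 in their fall was not tested.

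Several lists moved in the same libraries, neuronal and other. Of 25 further cilium genes tested, 21 were lower, including tbb-4 (log2 fold change -1.43, SE 0.101, adjusted p = 5.71e-08), the transition zone gene ccep-290 (-1.11, SE 0.136, adjusted p = 1.21e-05) and mks-5 (-1.50, SE 0.193, adjusted p = 1.82e-05). Of 15 signalling genes of ciliated neurons tested, 11 were lower, with summed levels of 52.4 to 53.6 CPM in libraries labelled WT krill oil day 6 and 60.8 to 65.1 CPM in those labelled WT control day 6. Pan-neuronal genes were lower for 15 of 16, with sums of 400 to 439 CPM against 601 to 631 CPM, and amphid glia genes for 5 of 7, with sums of 68.7 to 71.8 CPM against 92 to 100 CPM. Molting and cuticle genes were lower for 12 and higher for 4 of 19, with sums of 583 to 633 CPM against 758 to 772 CPM. Oocyte genes were higher for 9 of 11, with sums of 9124 to 9771 CPM against 8110 to 8538 CPM, and muscle genes higher for 5 and lower for 1 of 8, with sums of 3955 to 4285 CPM against 3233 to 3404 CPM. Intestine genes were lower for 7 and higher for 2 of 9, with sums of 64542 to 74411 CPM against 83112 to 86166 CPM, and zygotic embryo genes lower for 6 of 8 tested, with sums of 17.2 to 19.2 CPM against 25.8 to 29.6 CPM. Sperm genes were higher for 4 of 7 tested, with sums of 29.5 to 33.4 CPM against 18.4 to 20.4 CPM. Their part in the fall of the cilium genes was not tested.

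In libraries labelled PD at day 6 few cilium genes were called with krill oil. Of 36 tested, 3 were higher and 2 lower, against 24.8% and 12% of all 14469 genes, with a median log2 fold change of 0.22, against 0.05 over all genes. Che-2, dyf-13, ift-20 and dyf-18 were not tested. Single libraries decided these counts, with 1 higher without PD krill oil replicate 1 or PD control replicate 1, 2 or 3, no gene lower without PD control replicate 2 or 3, and 1 lower without PD control replicate 1 or PD krill oil replicate 2. Called or not, the log2 fold change was above 0 for 30 of the 36 genes and below 0 for 6. In simulated data for this comparison edgeR recovered 30.3% of 2-fold changes in genes of low level. The part of low counts in the few calls was not tested.

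Tba-9 had 2.04, 1.49 and 0.782 CPM in libraries labelled PD krill oil day 6, against 0.401, 0.548 and 0.503 CPM in those labelled PD control day 6. It was higher in all 3, where 29.8% of all genes had this order in all libraries (log2 fold change 1.59, SE 0.369, adjusted p = 0.00889). Tba-9 was lower with krill oil in PD at day 1, but strain and day cannot be told apart between those libraries and the ones labelled PD day 6. Klp-11 had 9.73, 6.86 and 6.51 CPM with krill oil, against 5.21, 5.24 and 5.54 CPM in controls (log2 fold change 0.56, SE 0.159, adjusted p = 0.0221), and the kinase gene cdkl-1 0.572, 0.537 and 0.633 CPM, against 0.255, 0.274 and 0.366 CPM (log2 fold change 1.00, SE 0.317, adjusted p = 0.0342). Hyls-1 had 21.3, 19.9 and 22.3 CPM with krill oil, against 24.9, 28.6 and 28 CPM in controls (log2 fold change -0.33, SE 0.089, adjusted p = 0.0187). Dyf-17 had 6.09, 4.74 and 7.04 CPM with krill oil, against 9.22, 8.41 and 8.28 CPM in controls (log2 fold change -0.51, SE 0.152, adjusted p = 0.0266). Klp-11 was no longer called without PD krill oil replicate 1, its highest library, or without any 1 of the 3 controls, and dyf-17 without PD krill oil replicate 2 or any 1 of the 3 controls. Daf-19 had 25.3, 25.6 and 30.3 CPM with krill oil, against 32.6, 31.1 and 32.7 CPM in controls (log2 fold change -0.21, SE 0.0925, adjusted p = 0.0938). It was called lower under 4 of 11 alternatives, DESeq2 among them, and hyls-1 was no longer called without PD control replicate 2 or 3.

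Lists of other tissues moved in these libraries. All 19 molting genes were higher, with sums of 376 to 932 CPM in libraries labelled PD krill oil day 6 and 114 to 138 CPM in those labelled PD control day 6. Muscle genes were higher for 8 of 8 and pan-neuronal genes for 11 of 16, with pan-neuronal sums of 375 to 441 CPM against 358 to 367 CPM. Sperm genes were higher for 6 of 6 tested, amphid glia genes for 5 of 7 and zygotic embryo genes for 3 of 7. Oocyte genes were lower for 4 of 11, and intestine genes higher for 4 and lower for 2 of 9. The part of these lists in the cilium calls was not tested. None of 21 further cilium genes tested was called, and the 3 with the smallest p, klp-6, ifta-1 and ccep-290, had adjusted p of 0.112, 0.114 and 0.19.

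**Figure D5:**
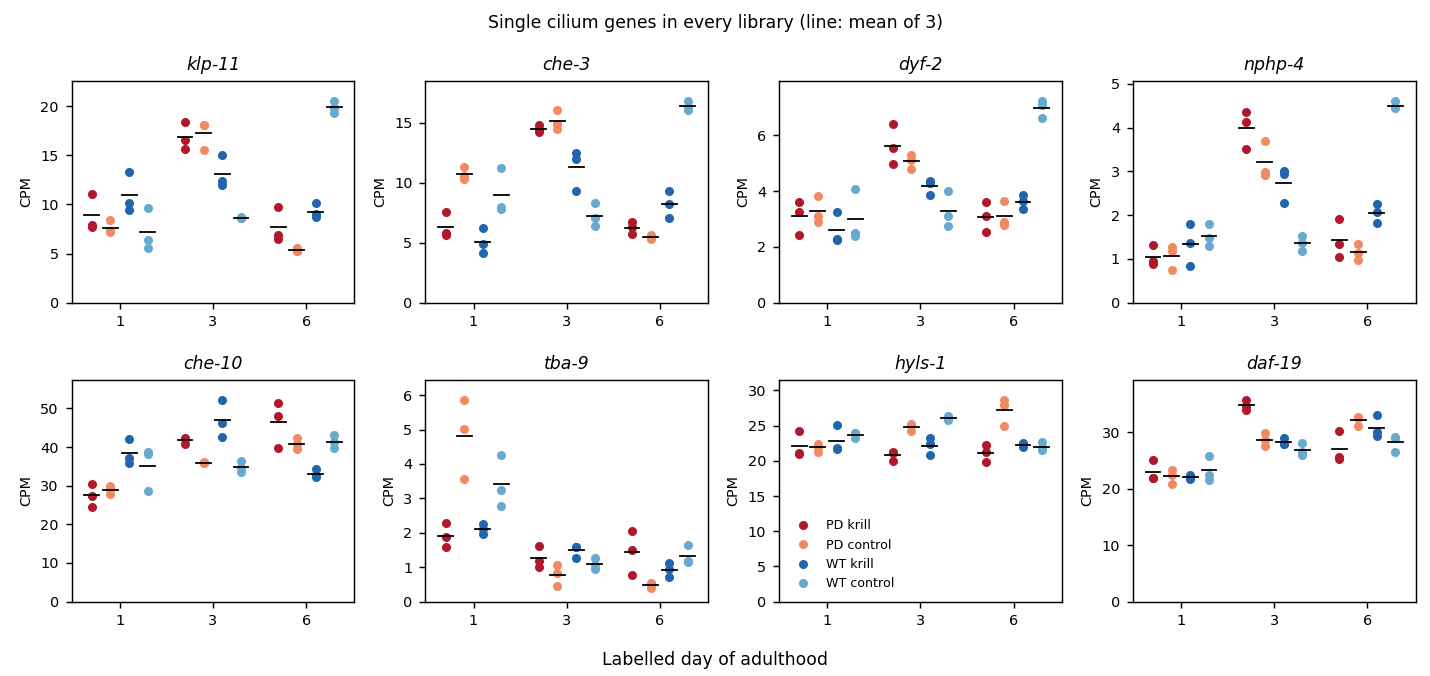
CPM of 8 cilium genes in every library by labelled adult day, with colours for labelled strain and diet and a line at the mean of 3 libraries. Klp-11, che-3, dyf-2 and nphp-4 are highest in libraries labelled WT control day 6 (klp-11 at 19.8, 20.5 and 19.3 CPM), tba-9 is highest in controls of day 1, and hyls-1 and daf-19 vary little.

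Tested directly, 33 of 40 cilium genes responded to krill oil differently in libraries labelled PD and WT day 6, 30 higher and 3 lower in PD, against 34.5% and 25.1% of all 15774 genes. The median difference was 1.26, against 0.22 over all genes. The smallest p was that of klp-11 (1.63, SE 0.175, adjusted p = 5.06e-06), followed by che-3 (1.20, SE 0.152, adjusted p = 2.09e-05) and dyf-18 (3.38, SE 0.545, adjusted p = 0.000145). The kinase gene dyf-18 had 0.368, 0.285 and 0.261 CPM in libraries labelled PD krill oil day 6 and 0.0729, 0.0782 and 0.0915 CPM in those labelled PD control day 6, so its size rests on a handful of reads. In libraries labelled WT it had 0.267, 0.188 and 0.26 CPM with krill oil and 0.698, 0.818 and 0.538 CPM in controls. Lower were hyls-1 (-0.37, SE 0.101, adjusted p = 0.00655), daf-19 (-0.36, SE 0.114, adjusted p = 0.0137) and dyf-17 (-0.47, SE 0.191, adjusted p = 0.0466), 3 of the 5 most abundant cilium genes per kilobase. All these differences would change sign if the strain names of day 6 were exchanged.

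Strain differences among controls were called for 1 cilium gene at day 1, 15 at day 3 and 34 at day 6. At day 1, 1 of 36 genes tested was higher in PD than in WT controls (5.88% of all 14496 genes higher, 5.01% lower), and it was dyf-3. Dyf-3 had 6.89, 7.26 and 7.67 CPM in PD controls, against 2.34, 2.48 and 2.56 CPM in WT controls, a log2 fold change of 1.56 (SE 0.119, adjusted p = 1.42e-05). At an unadjusted p under 0.05, 4 genes were higher and 4 lower. Next came dyf-17 (log2 fold change 0.37, SE 0.113, adjusted p = 0.0555) and osm-1 (-0.24, SE 0.0793, adjusted p = 0.073), and for daf-19 the value was -0.07 (SE 0.0807, adjusted p = 0.627).

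At day 3, 15 of 40 were higher in PD than in WT controls, against 21.5% of all genes, and none was lower, against 16.3%. No gene was lower at an unadjusted p under 0.05 or by DESeq2, which called 12 higher, and the median was 0.67, against 0.05 over all genes. Dyf-3 was higher by 1.29 (SE 0.115, adjusted p = 2.99e-06), klp-11 by 0.99 (SE 0.099, adjusted p = 6.91e-06) and che-3 by 1.05 (SE 0.11, adjusted p = 9.76e-06). For daf-19 it was 0.09. Without WT control replicate 3 the count was 15 higher again and the median 0.62. Molting sums were 693 to 748 CPM in PD controls and 301 to 333 CPM in WT controls, and pan-neuronal sums 448 to 457 CPM and 402 to 440 CPM, and their part was not tested.

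At day 6, 33 of 40 were lower and 1 higher in libraries labelled PD control than in those labelled WT control, against 43.5% and 30.2% of all genes, with a median of -1.44, against -0.25 over all genes. In 34 genes every library labelled PD control lay below every library labelled WT control, as in 46.1% of all genes. Dyf-3 was lower by -1.95 (SE 0.117, adjusted p = 7.3e-09), klp-11 by -1.90 (SE 0.125, adjusted p = 1.39e-08) and che-3 by -1.59 (SE 0.107, adjusted p = 1.85e-08). Hyls-1 was the one higher gene, with 24.9, 28.6 and 28 CPM in libraries labelled PD control day 6, against 21.8, 21.6 and 22.7 CPM in those labelled WT control day 6 (log2 fold change 0.30, SE 0.0716, adjusted p = 0.0017). For daf-19 the value was 0.18 (SE 0.0811, adjusted p = 0.0556), and it was called higher under 10 of 17 alternatives, DESeq2, RLE factors and the replicate block among them, and uncalled under 7. Dyf-3 also had 2.74, 2.5 and 2.83 CPM in libraries labelled PD krill oil day 6, and 9.82, 8.55 and 9.93 CPM in those labelled WT krill oil day 6. It therefore took the same turn as the strain-specific genes at day 6, on both diets. Pan-neuronal sums were 358 to 367 CPM in libraries labelled PD control day 6 and 601 to 631 CPM in those labelled WT control day 6, and molting sums 114 to 138 CPM and 758 to 772 CPM. Intestine genes were lower for 7 and higher for 2 of 9 and muscle genes lower for 7 of 8, and the part of these lists was not tested.

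Between day 1 and day 3 cilium genes rose in 3 of the 4 strain and diet series. With krill oil in PD, 30 of 39 tested were higher and 1 lower at day 3 than at day 1 (25.9% and 23.3% of all 15613 genes), and in PD controls 29 of 39 were higher and 1 lower (26.2% and 21.5%). In WT with krill oil 23 of 40 were higher and 1 lower (21.8% and 20.1% of all 16083 genes), and in WT controls 5 were higher and 1 lower (11.4% and 12.3%). The median log2 fold changes were 1.15 and 0.77 in PD krill oil and PD controls, and 0.87 and 0.10 in WT krill oil and WT controls. With the day 6 libraries left out of the fit, an alternative chosen after the data were seen, the higher genes numbered 31, 29, 20 and 4 in the same order. In WT krill oil the count was 15 without replicate 1 of day 1 or replicate 2 of day 3, and in WT controls it was 1 without replicate 2 of day 1, 2 without replicate 2 of day 3 and 6 without replicate 3 of day 3.

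In PD krill oil che-3 rose by 1.19 (SE 0.103, adjusted p = 3.85e-08), che-11 by 2.31 (SE 0.253, adjusted p = 6.81e-07) and nphp-4 by 1.90 (SE 0.227, adjusted p = 1.87e-06). Nphp-4 had 4.35, 3.5 and 4.12 CPM at day 3, against 1.31, 0.89 and 0.947 CPM at day 1. In PD controls klp-11 rose by 1.18 (SE 0.143, adjusted p = 1.71e-06) and nphp-4 by 1.57 (SE 0.22, adjusted p = 9.62e-06), while tba-9 was the one gene lower, by -2.61 (SE 0.296, adjusted p = 7.64e-07). Tba-9 had 0.467, 1.05 and 0.822 CPM in PD controls of day 3, against 5.02, 5.85 and 3.56 CPM at day 1. It was also lower in WT controls (-1.63, SE 0.202, adjusted p = 1.48e-05), while its log2 fold changes with krill oil, -0.61 in PD and -0.50 in WT, were not called (adjusted p = 0.115 and 0.0724).

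In WT krill oil che-3 rose by 1.14 (SE 0.174, adjusted p = 7.39e-05), nphp-1 by 1.24 (SE 0.22, adjusted p = 0.000271) and the IFT-B gene dyf-1 by 1.37 (SE 0.263, adjusted p = 0.00055). In WT controls dyf-3 rose by 0.73 (SE 0.138, adjusted p = 0.000911) and nphp-1 by 0.77 (SE 0.22, adjusted p = 0.0176). Daf-19 was higher at day 3 in all 4 series, by 0.59 in PD krill oil, 0.37 in PD controls, 0.36 in WT krill oil and 0.21 in WT controls (adjusted p of 4.03e-06, 0.000441, 0.000645 and 0.0357). In WT controls the calls of daf-19 and nphp-1 were each lost under 4 of 24 alternatives, at adjusted p up to 0.13 and 0.187. For daf-19 these were the removal of only all-zero genes and leaving out replicate 1 or 2 of day 1 or replicate 1 of day 3. Of further cilium genes, 24 of 28 tested were higher in PD krill oil, 17 of 28 in PD controls and 15 of 27 in WT krill oil, and 1 of 27 was lower in WT controls. Molting genes were higher for 18, 16, 17 and 4 of 19 in PD krill oil, PD controls, WT krill oil and WT controls, and pan-neuronal genes for 14, 3, 14 and 1 of 16. The part of these transcripts in the rise of cilium genes was not tested.

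Between libraries labelled day 6 and day 3 the sign depended on strain label and diet. In PD krill oil 27 of 39 were lower at day 6 than at day 3 and none higher (16.8% and 18.3% of all genes; 1 higher at an unadjusted p under 0.05, none by DESeq2), and in PD controls 26 were lower and 2 higher (33.3% and 28.4%). In WT krill oil 11 of 40 were lower and 1 higher (11.8% and 10.3%), and in WT controls 2 were lower and 33 higher (28.5% and 36.8%). The medians were -0.82 and -0.98 in PD krill oil and PD controls, and -0.51 and 1.07 in WT krill oil and WT controls, against all-gene medians of 0.00, -0.12, -0.02 and 0.13. Dyf-3 had the smallest p in each of the 4, at -1.81, -1.97, 2.12 and 1.24 in the same order (adjusted p of 3.98e-10, 4.53e-11, 3.11e-08 and 6.32e-07). In WT krill oil the count of lower genes was 5 without replicate 2 of day 3 or replicate 1 of day 6 and 7 without replicate 1 of day 3 or replicate 2 of day 6, and in WT controls 27 were higher without replicate 3 of day 3.

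After dyf-3 the smallest p belonged to che-3 and che-12 in PD krill oil (-1.19, SE 0.0998, adjusted p = 1.87e-07, and -1.58, SE 0.191, adjusted p = 1.14e-05), and to che-3 and klp-11 in PD controls (-1.45, SE 0.102, adjusted p = 2.69e-09, and -1.67, SE 0.148, adjusted p = 4.2e-08). Che-12 encodes a protein of the ciliary axoneme. In WT krill oil they belonged to klp-20 (-0.43, SE 0.0751, adjusted p = 0.000682) and nphp-1 (-1.11, SE 0.208, adjusted p = 0.00113), and in WT controls to nphp-4 (1.74, SE 0.194, adjusted p = 1.55e-06) and klp-11 (1.20, SE 0.159, adjusted p = 8.18e-06). Nphp-4 had 4.6, 4.46 and 4.44 CPM in libraries labelled WT control day 6, against 1.37, 1.52 and 1.17 CPM at day 3. Daf-19 changed by -0.33, 0.18, 0.12 and 0.08 in PD krill oil, PD controls, WT krill oil and WT controls (adjusted p of 0.00203, 0.037, 0.209 and 0.327), and the call in PD controls was lost under 5 of 23 alternatives. Of further cilium genes 21 of 28 were lower in PD krill oil and 12 of 28 in PD controls, against 20 of 27 higher in WT controls, with pan-neuronal genes lower for 11 and 15 of 16 and higher for 15 of 16 in the same groups.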

How the data were processed

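Per the labels and the study's methods, total RNA was depleted of ribosomal RNA, read pairs were aligned to WBcel235 with Ensembl release 96 by STAR 2.7.10a, and duplicates were removed by molecular identifier with UMI-tools, beside fastp 0.23.2 and SAMtools. The deposited files hold whole-number counts per gene from the authors, without normalization, and the counter and its use of strand are not given in the sources used here. Counts were tested with edgeR 4.0.16 in R 4.3.3 (filterByExpr with a minimum count of 10, TMM scaling, quasi-likelihood test, Benjamini-Hochberg over the 13569 to 16083 genes tested, threshold 0.05). Krill oil was tested in 6 libraries per strain and day, strain contrasts in the 12 libraries of a day, and age in the 18 libraries of a strain, so age steps share libraries and krill oil and strain contrasts share controls. The SE is the log2 fold change divided by the root of the F statistic. The fits were tried on simulated data with known changes. For krill oil in PD at day 6, edgeR recovered 30.3% of 2-fold changes in genes of low level and 93.9% in genes of high level. There 11.9% of its calls were false, and 17% of those of DESeq2. In the other comparisons simulated, 4.2% to 7.1% of edgeR calls were false. Positions and exon lengths come from release 115, which held 46603 of the 46778 identifiers, and 1 gene of the lists (bbip-1) matched none. Exons of 15 of the 40 genes share 13 to 181 nt with a protein-coding neighbour, 6 of them on the same strand, and reads there may be counted for either gene. Same-numbered replicates deviated together with correlations of -0.025 to 0.283, not all over 0.1, so libraries were not paired. Replicates of a group differed by more than sampling noise. The 40 genes, the lists and the tests were chosen with earlier results of these data known. Values of every library are given for the 4 genes of smallest p per krill oil comparison, genes called against the majority, the most abundant gene of each role where called, and daf-19, and elsewhere the 3 of smallest p are named; the strain-specific genes and others named were chosen after their values were seen. Alternatives were DESeq2 1.42.0, RLE factors, removal of only all-zero genes, a replicate block, all 36 libraries in 1 fit, and each library left out. Comparisons and p-values of the authors were not used, and no sequences are shown.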

Additional observations from a re-analysis of the deposited data

Results flagged for a closer look

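A test of the difference itself called cilium genes whose response to krill oil differed between the strain labels at day 3 and day 6. At day 3 the effect was more positive in PD for 1 cilium gene and less positive for 2, dyf-3 (0.85 on the log2 scale), klp-11 (-0.65) and che-3 (-0.70). Neither share was above that of all genes, of which 3.4% and 6.2% were called. Between libraries labelled PD and WT at day 6 the effect was more positive in those labelled PD for 30 genes, among them klp-11 (1.63), che-3 (1.20) and dyf-18 (3.38), and less positive for 3, including daf-19 (-0.36), where 34.5% and 25.1% of all genes were called. Strain-specific genes were turned round at day 6, where 16 of 17 genes higher in PD at day 1 were lower in every library labelled PD than in every library labelled WT, a difference that was not tested.

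For 23 of the 40 genes, libraries labelled day 6 lay below those of day 3 in PD controls and above them in WT controls, without overlap, as did 24.6% of all genes. For 17 genes they lay below those of day 3 in WT krill oil and above them in WT controls, as did 9.7% of all genes. For 20 genes WT krill oil libraries lay above WT controls at day 3 and below them at day 6, as did 12.1% of all genes. These differences between groups were not tested, and the groups share libraries.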

How the results depend on the processing

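Limits: PD and WT labels at day 6 go against strain-specific genes, cilium transcripts take a small part of whole-worm reads, overlapping exons were not separated, and groups hold 3 libraries. Each result for a single named gene was set beside each of its alternatives. Of these pairs, 1867 kept their side of the threshold, called or not, while 47 lost and 27 gained a call. No result that was called in either fit changed sign, and the signs of genes called in neither fit were not compared. Counts of called genes were within 1.5 times the reported count in 184 instances and beyond it in 24, left-out libraries aside. No X-box promoter search was run, since no promoter sequence was used here.

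With DESeq2, krill oil gave 2 genes higher and 1 lower in PD at day 3, 1 lower in WT at day 1 and 6 higher in WT at day 3. It gave 2 genes higher in PD than WT controls at day 6 (median -1.26) and medians of 1.08 for the day 6 strain difference, 1.08 for day 3 against day 1 in PD krill oil, -0.87 for day 6 against day 3 in PD controls and 0.97 in WT controls. With RLE factors the medians were 1.12 for the day 6 strain difference, -1.30 for PD against WT controls at day 6, with 2 higher, and 0.99 for day 6 against day 3 in WT controls. With only all-zero genes removed, 1 gene was lower with krill oil in WT at day 1, 1 lower in PD than WT controls at day 1 and 2 higher at day 6, 1 higher at day 6 against day 3 in PD controls and 1 lower in WT controls, and 2 higher at day 3 against day 1 in WT controls. With all 36 libraries in 1 fit, krill oil gave 2 higher and 1 lower in PD at day 3 and 2 higher and 2 lower in WT at day 1, PD against WT controls 2 higher and 2 lower at day 1 and 2 higher at day 6, the day 3 strain difference 1 lower, and day 6 against day 3 in PD controls 1 higher. With the replicate number as a block, 2 genes were higher and 1 lower in PD than WT controls at day 1 and 2 higher at day 6; the other counts stayed within 1.5 times.

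With each library left out in turn, krill oil gave 3 to 6 genes higher, 1 to 3 lower and a median of 0.14 to 0.23 in PD at day 3, 1 to 4 higher, 0 to 3 lower and a median of 0.09 to 0.27 in PD at day 6, 0 to 1 higher and 0 to 2 lower in WT at day 1, 7 to 13 higher and 1 to 2 lower in WT at day 3, and a median of -1.11 to -0.99 in WT at day 6. PD against WT controls gave 1 to 2 higher and 0 to 1 lower at day 1, a median of 0.57 to 0.67 at day 3, and 1 to 2 higher with a median of -1.49 to -1.37 at day 6. The day 3 strain difference gave 2 to 4 lower. Day 3 against day 1 gave 0 to 1 lower and a median of 1.06 to 1.12 in PD krill oil, a median of 0.71 to 0.81 in PD controls, 15 to 24 higher, 1 to 2 lower and a median of 0.74 to 1.06 in WT krill oil, and 1 to 7 higher and a median of -0.01 to 0.34 in WT controls. Day 6 against day 3 gave 0 to 1 higher in PD krill oil, 0 to 3 higher and a median of -0.97 to -0.82 in PD controls, 1 to 2 higher and 5 to 15 lower in WT krill oil, and a median of 0.98 to 1.15 in WT controls. Except where the report names the change, the cause was not tested.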
